A study of Mus musculus with 9 samples.

Results

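Intronic circular RNAs were taken as all entries that the authors' deposited table types as intron, with no use of their counts. They were 3761 of 37751 circRNAs (9.96%), named to 1690 hosts, and they held 97784 of 2679099 back-splice reads (3.65%). Exonic circRNAs, the large class of the same table, numbered 33054 in 6704 hosts. The table comes from mouse C2C12 myoblasts, an established line that fuses into myotubes when serum is withdrawn. The groups were proliferating cells in medium with 10% fetal bovine serum (day 0), and cells 3 and 6 days after confluent cultures were moved to medium with 2% horse serum, with 3 libraries at each of the 3 times. All 9 libraries came from TRIzol total RNA cleaned on beads and treated with DNase, a step the labels describe as enriching circRNAs; none of the protocols names an enzyme that removes linear RNA. The cells are 1 line with no genetic change named, and nothing in the labels ties the libraries of a day to separate cultures. P-values therefore measure only the spread between these libraries, which may be technical.

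A circRNA is made when a downstream 5′ splice site (the donor) is joined to an upstream 3′ splice site (the acceptor), and the read that crosses this back-splice is what was counted here. Circles that hold intron sequence are of more than 1 known kind. Lariat-derived circles keep part of a single excised intron, begin right at its 5′ splice site and lack exons, while exon-intron circles join exon edges and retain the intron between the exons. Both kinds have been described as largely nuclear and as acting on transcription of their own host genes. Myoblast differentiation is a setting in which many exonic circRNAs are known to accumulate.

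Sequence was read at the ends that lie on annotated exons, from the GENCODE M21 transcripts of GRCm38. It is shown for members on which the results turn: the members called between days that have an end on an exon edge, apart from Zeb1, and the member with the most reads. Lower case is the last exon bases before the donor end, and capitals are the first exon bases after the acceptor end, each read 5′ to 3′ on the strand of the circle. Where both ends lay on exon edges the line is the expected junction. Where only 1 end did, only the exon side is given, because the intron side was not analysed here.
Gm21992, acceptor side: GTAATTGGCGTTCCG
Ryr1, acceptor side: ATTTCCAAAACTACC
Exoc1, acceptor side: AATCTGTTCCAAGCG
Asap1, acceptor side: GTCGTTTTCGGATGT
Etv6, donor side: gcagaattaacacag
Brinp3, donor side: tccactgccatcaag
App, junction: ttcaagatgaagtcgAGGTGTGCTCTGAAC
Gm13483, junction: agaggtaggaggtctGGAGTTGCAGTTAAG
Tanc2, junction: caaattctgtagcagCCCCTCTGAGGAAGG
Most of the lines shown give a single exon side, and those of App, Gm13483 and Tanc2 give a junction. The called Zeb1 circles, which are not shown, also had an exon edge at each end, and the called Samd4 circle had none.

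The typical intronic circRNA had 1 end on an exon and the other inside an intron. Ends were compared with GENCODE M21 exon edges on the strand of the circle at an exact match, acceptors with exon starts and donors with exon ends. Of the 3761 intronic circRNAs, 3047 (81.0%) had 1 end on an edge, 542 (14.4%) had none and 172 (4.57%) had both. Of the 33054 exonic circRNAs, 2183 (6.60%) had 1 end on an edge, 1256 (3.80%) had none and 29615 (89.6%) had both. The type label is an annotation of these same ends, so the contrast describes what the label holds and is no independent result. The donor was the end on the exon in 1955 circles of 1044 hosts and the acceptor in 1092 circles of 679 hosts.

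Circles within introns were a small class, and few had the layout of a lariat-derived circle. No exon of the circle's own strand was overlapped by 271 of the intronic circRNAs (7.21%), in 195 hosts, against 6 exonic ones (0.0182%). Of those 271, only 6 began at the first intron base after an exon, as a circle that keeps the 5′ splice site of its intron would. That match was exact to the base, and whether the unnamed caller could list such circles was not tested. The circles without an exon had a median span of 2093 bp and held 7500 reads, 7.67% of all intronic reads. A circle that overlaps no exon must fit between neighbouring exons, so the definition itself limits its span. A further 271 circles had neither end on an edge but ran over at least 1 exon, with a median span of 13465 bp and 3044 reads. A strand opposite to the named host was given for 99 intronic circRNAs (2.63%) and 15 exonic ones (0.0454%).

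The 172 circles with both ends on exon edges differed from exonic circles in which edges they used. An annotated transcript that contained both edges existed for 88 of them (51.2%), against 29167 of 29615 exonic circRNAs with both ends on edges (98.5%). Of their edges, 54.7% belonged to a transcript with a RefSeq match, against 93.6% of the edges of intronic circRNAs with a single edge and 97.8% of the edges of exonic circRNAs with both. The edges of this class thus lay more often on transcripts of GENCODE alone. The annotation that the authors used to set the type is not given in the sources used here, and its part in this was not tested.

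**Figure D1:**
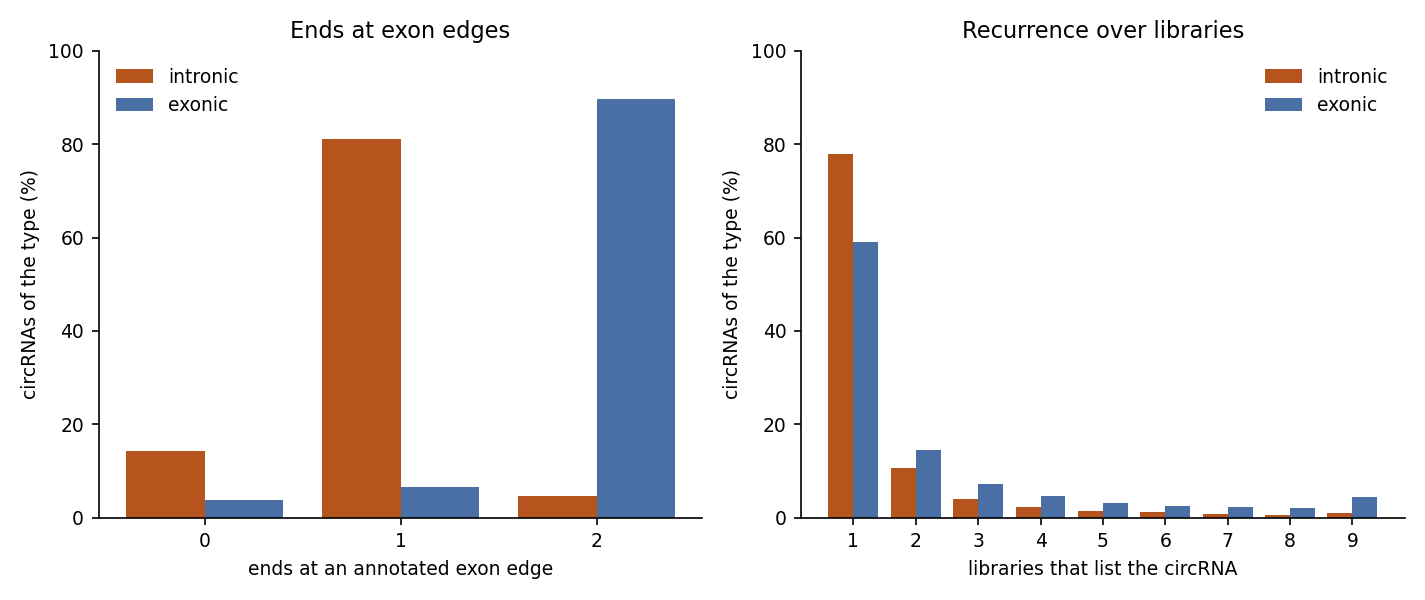
Left, percentage of intronic and exonic circRNAs with 0, 1 or 2 ends on an annotated exon edge; right, percentage listed in 1 to 9 libraries. Intronic circRNAs stand at 81.0% with 1 end on an edge and at 77.9% in a single library.

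Most intronic circRNAs shared their exon end with an exonic circle of the same host. The host also held an exonic circRNA for 3509 of the 3761 (93.3%) and in 1516 of the 1690 hosts (89.7%). The acceptor was that of such an exonic circle in 877 intronic circRNAs (23.3%) and the donor in 1520 (40.4%), so that 2397 (63.7%) shared exactly 1 end. None shared both ends, as a pair of shared ends would mostly be an exonic circle itself. With a tolerance of 10 bp the share was 64.3%, and with 100 bp it was 65.7%.

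The free ends lay deep in long introns. Where the acceptor was off the exon, its median distance to the nearest exon edge was 3574 bp (quartiles 900 and 8693.5 bp), and 9.82% lay within 100 bp. Where the donor was off, the median was 3074.5 bp (quartiles 604.5 and 9169.75 bp). The introns that held these ends had median lengths of 28111 bp for acceptors and 28415 bp for donors, against 3486.75 and 4009 bp for the medians of the introns of the same transcripts. A long intron offers more positions, so part of this gap is fixed by length. Off-edge acceptors fell in the first intron in 882 of 1882 cases (46.9%), while first introns made up on average 24.0% of the intron bases of those transcripts. Off-edge donors fell there in 2 of 1027 cases, where first introns made up 17.4% of the bases. A donor downstream of an acceptor on an exon edge can hardly lie in a first intron, so the layout of the circles sets part of both figures. Of 3553 distinct off-edge ends, 417 (11.7%) were used by more than 1 intronic circRNA. The most reused were in Samd4, the donor at chr14:46917051 by 8 circles and the acceptor at chr14:46910111 by 7, and in Zfp236 by 7 and Foxp1 by 6 circles.

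Intronic circRNAs spanned more of the genome than exonic ones. The median span was 17137 bp (quartiles 5954 and 38521 bp) for intronic and 9183.5 bp (quartiles 4054 and 19271 bp) for exonic circRNAs. Spans over 100 kb were found for 223 intronic circRNAs (5.93%) and 631 exonic ones (1.91%), and spans under 1 kb for 5.42% and 5.47%. Span is the genomic distance between the ends, not the length of the RNA, because what is spliced out inside a circle is not seen in these counts. By class the median span was 21499 bp with the donor on an edge, 15210.5 bp with the acceptor on an edge and 17529.5 bp with both. The longest members with enough reads to test were circles of Atxn1 (275353 bp, a gene for a polyglutamine-disease protein), Tenm3 (190801 bp, a teneurin adhesion protein) and Pvt1 (131998 bp). The shortest were U2af1 (429 bp, a subunit of the factor that binds 3′ splice sites), Zswim6 (443 bp) and Gm13986 (453 bp). All 6 were thinly covered, with 33 to 79 reads in 3 to 5 libraries, and none passed the test between days.

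**Figure D2:**
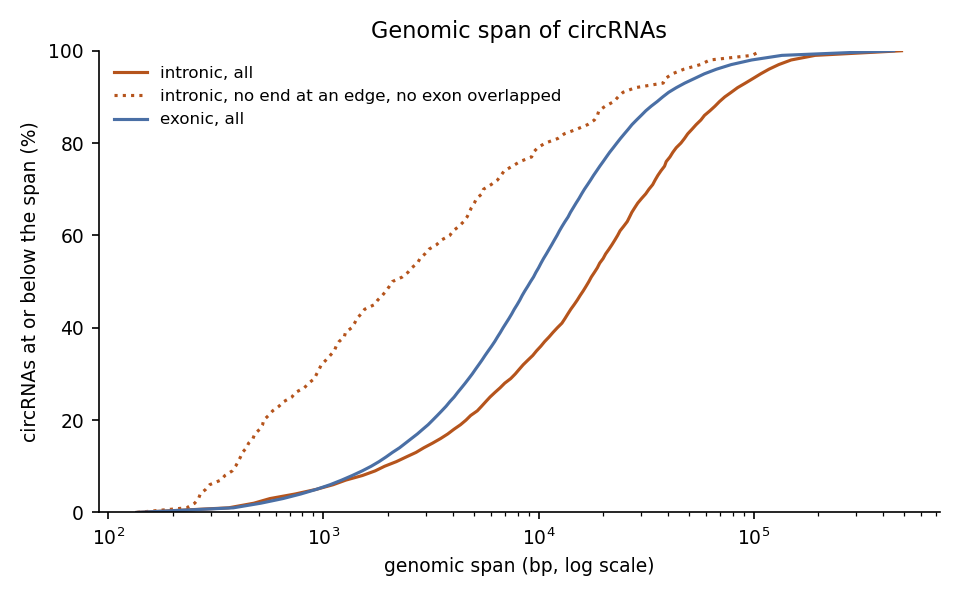
Cumulative percentage of circRNAs at or below a genomic span (bp, log scale), for all intronic circRNAs, for the intronic circRNAs that overlap no exon and for exonic circRNAs. The intronic curve lies to the right of the exonic one (medians 17137 and 9183.5 bp). Circles without exons, whose spans are limited by that definition, lie far to the left (median 2093 bp).

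Intronic circRNAs recurred less often than exonic ones. A single library listed 2928 of them (77.9%), against 59.1% of exonic circRNAs, and 833 (22.1%) against 40.9% were listed in at least 2. All 9 libraries listed 40 intronic circRNAs (1.06%) and 1440 exonic ones (4.36%). Circles of a single library held 28.0% of intronic reads and 7.33% of exonic reads, while circles of all 9 libraries held 29.3% and 61.7%. The gap narrowed at equal read totals: with 20 to 49 reads in all, 23.8% of intronic and 16.0% of exonic circRNAs came from 1 library, and with at least 100 reads the median was 7 and 8 libraries. The smallest count above 0 in the table is 2, so a circle with 1 read in a library is listed there at 0. Days did not define stable sets of members. Of the intronic circRNAs, 1235 were listed only at day 0, 1003 only at day 3 and 835 only at day 6, but in all 3 libraries of that day only 5, 2 and 2 of them.

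The hosts were mostly protein-coding genes with a single intronic circle. Protein-coding hosts had 96.6% of intronic and 99.3% of exonic circRNAs, and long non-coding hosts had 3.16% and 0.638%. A single intronic circle was named to 1017 hosts (60.2%), at least 5 to 165 and at least 10 to 47. Hosts with many were Samd4 with 38 (a Smaug protein that represses translation of bound mRNAs), the long non-coding gene Pvt1 with 23, Brinp3 with 20, and the overlapping pair Foxp1 and Gm20696 with 20. More than 1 host was named for 117 intronic circRNAs (3.11%), and for overlapping genes the host of a circle cannot be told. The database circBase lists 22 intronic circRNAs (0.585%) and 985 exonic ones (2.98%), per the deposited table.

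In most of these hosts the intronic circles were the minor product, but not in all. Intronic circles took 18.9% of the circular reads of Samd4, 29.6% of Brinp3 and 28.0% of Foxp1 with Gm20696. Pvt1 had 1278 intronic and 3825 exonic reads. Intronic circles were 94.6% of the reads of Zeb1 (a zinc-finger repressor that keeps cells in a mesenchymal state), with 3463 intronic and 198 exonic reads. Of those intronic reads, 2346 and 943 came from circles that each had both ends on exon edges. For Ttc28, which encodes a protein with tetratricopeptide repeats, the share was 88.7%, but 2111 of its 2120 intronic reads came from 1 circle on the opposite strand. By contrast Nfix, a transcription factor of the switch from embryonic to fetal myogenesis and a host of abundant exonic circles, had 1509 intronic reads, 1.99% of its circular reads.

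The intronic circRNA with the most reads lay at chr19:4784724-4794009, named to Gm21992, a gene model that overlaps the RNA-binding protein genes Rbm4 and Rbm14. Its acceptor was the start of exon 3 of 4, and circBase lists it. It had 538, 283 and 337 reads in the day 0 libraries, 235, 249 and 222 at day 3, and 177, 210 and 541 at day 6. In CPM, the usual per-library scaling of a count, here by the TMM-adjusted total, it averaged 1371 ± 296 for day 0, 759 ± 111 for day 3 and 976 ± 265 for day 6, as mean and SD of 3 libraries. The day 3 libraries were all below those of day 0, whereas day 6 overlapped day 0. The log2 fold change of day 3 over day 0 was -0.85 ± 0.27 (SE) and missed the threshold of 0.05 in edgeR's quasi-likelihood test (adjusted p = 0.139). It passed with DESeq2's size factors in edgeR (adjusted p = 0.0239), with library totals alone in edgeR (0.0441) and by DESeq2 itself (4.45e-04).

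A circle on the strand opposite to Ttc28, chr5:111245514-111245969, was the most abundant one without an exon on its own strand. It spanned 456 bp and lay 29125 bp from the nearest exon edge of that strand. Exons of the other strand, those of Ttc28 among them, were not compared. It had 151, 179 and 180 reads at day 0, 246, 176 and 273 at day 3, and 165, 267 and 474 at day 6. In CPM it averaged 626 ± 134 at day 0, 736 ± 103 at day 3 and 982 ± 210 at day 6, with adjusted p = 0.354 for day 6 against day 0 by edgeR. Whether the counting used strand is not stated, so the strand of this circle is as deposited.

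Several well-covered members gave no call between days and stood at similar levels throughout. The Stxbp5 circle (chr10:9841871-9868753, in the gene of tomosyn, which binds SNARE proteins) averaged 423 ± 101, 319 ± 174 and 415 ± 125 CPM at days 0, 3 and 6. A circle at chr7:132948044-132950435, named to both Fgfr2 and Zranb1, averaged 381 ± 210, 415 ± 48.6 and 402 ± 101 CPM. The largest Nfix member (chr8:84771784-84779275) averaged 362 ± 89.4, 483 ± 151 and 348 ± 112 CPM, beside 21364 ± 1627, 33381 ± 6237 and 28473 ± 5991 CPM for the exonic circles of Nfix. Libraries of different days overlapped for each of these 3 members, and each had adjusted p of at least 0.975 against day 0. The Pip4k2a circle (chr2:18905275-18908152, in the gene of a phosphoinositide kinase) stood apart from these, with 245 ± 131, 500 ± 266 and 636 ± 203 CPM and no overlap of day 3 or day 6 with day 0. It missed the threshold by edgeR (adjusted p = 0.422 at day 3 and 0.113 at day 6). At day 6 it passed by DESeq2 (0.0374), with the replicate number as a block (0.0421), and without day 0 replicate 2 (0.0369), day 0 replicate 3 (0.0419) or day 6 replicate 1 (0.0326).

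Over all members, intronic circRNAs took a smaller share of back-splice reads after serum withdrawal. The share was 4.14, 4.30 and 4.21% in the day 0 libraries, 3.45, 3.32 and 3.36% at day 3, and 3.24, 3.31 and 3.60% at day 6. Every day 3 and day 6 library lay below every day 0 library. Day 3 averaged 3.38 ± 0.0674% against 4.22 ± 0.0827% at day 0, a difference of -0.839 percentage points. Day 6 averaged 3.39 ± 0.191%, a difference of -0.829 points from day 0 and of 0.0104 from day 3. Exact two-sided permutation tests gave p = 0.1 for both comparisons with day 0, which is the smallest p that 3 against 3 libraries allow, and p = 1 for day 6 against day 3. In each library the 95% Wilson interval of the share was narrower than the gap between day 0 and the later days. The interval covers counting error only, and was 4.07 to 4.20% in day 0 replicate 1 and 3.39 to 3.52% in day 3 replicate 1.

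Much of that difference came from circles of a single library. They averaged 1.40% of all reads at day 0 (1.30 to 1.56%), 0.870% at day 3 (0.768 to 0.968%) and 0.828% at day 6 (0.741 to 0.928%). Members listed in at least 2 libraries averaged 2.82% of all reads at day 0, 2.51% at day 3 and 2.56% at day 6, differences of -0.311 and -0.259 points, without overlap with day 0 (exact permutation p = 0.1 each). With circRNAs of a single library left out of every type, the intronic share differed by -0.443 and -0.389 points. Without the circles of Samd4 it was -0.730 and -0.692 points. Library totals ranged from 208787 to 443955 back-splice reads and overlapped between days. The number of intronic circRNAs listed was lowest, at 438, in the library with the fewest reads (day 6 replicate 1) and highest, at 850, in day 0 replicate 3, with 263833 reads. It averaged 708 ± 138 per library at day 0, 660 ± 34.9 at day 3 and 572 ± 161 at day 6, with overlap between all days (exact permutation p = 0.8 for day 3 and 0.4 for day 6 against day 0). They made up 7.48 ± 0.336, 6.77 ± 0.329 and 6.44 ± 0.510% of the circRNAs listed in a library (exact permutation p = 0.2 at day 3 and 0.1 at day 6, against day 0).

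The classes of ends did not move together. Circles with the donor on an edge averaged 2.01, 1.59 and 1.59% of all reads at days 0, 3 and 6, and circles with the acceptor on an edge 1.36, 1.03 and 1.07%. Circles off both edges that ran over an exon averaged 0.176, 0.107 and 0.0651%, and circles without an exon 0.393, 0.231 and 0.232%. Circles with both ends on exon edges went the other way, with 0.278 ± 0.0195, 0.417 ± 0.0428 and 0.425 ± 0.0101%. In all 5 classes the libraries of day 3 and of day 6 did not overlap those of day 0 (exact permutation p = 0.1 each, the smallest possible). Without Zeb1, the class with both ends on edges averaged 0.200, 0.271 and 0.279% and still did not overlap day 0 (exact permutation p = 0.1 each). Without the 5 circles that were called higher, a removal that itself takes out the rise, it averaged 0.189, 0.195 and 0.177%. Without Samd4, circles without an exon averaged 0.234, 0.183 and 0.206%, with an exact permutation p of 0.1 at day 3 and an overlap at day 6 (p = 0.2).

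**Figure D3:**
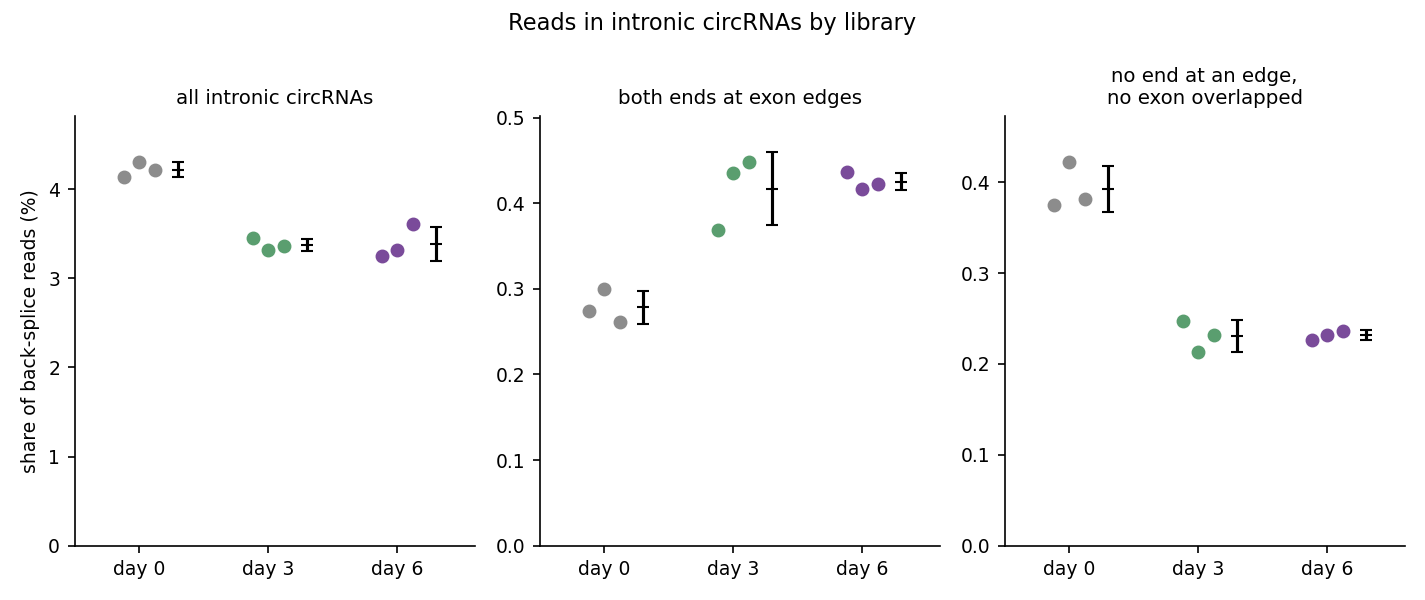
Share of back-splice reads (%) in all intronic circRNAs, in those with both ends on exon edges and in those without an exon, by day; points are libraries, and bars beside them are the mean ± SD of 3. All intronic circRNAs are at 4.22% on average at day 0 and near 3.38% later, the class without an exon follows, and the class with both ends on edges runs the other way.

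Tests of single circRNAs were fitted on the whole table, and 368 of the 3761 intronic circRNAs (9.78%) had enough reads, against 23.2% of exonic ones. These 368 held 61.0% of intronic reads. At day 3 against day 0, 8 intronic circRNAs rose and 0 fell past an adjusted p of 0.05 (2.17% of those tested). Of all 8153 circRNAs tested, 1.58% were called, 1.31% higher and 0.27% lower. At day 6 against day 0, 9 rose and 1 fell (2.72%), where 1.99% of all were called, 1.47% higher and 0.515% lower. At day 6 against day 3 edgeR called 0 intronic circRNAs, where 0.0613% of all were called, and DESeq2 called 1 intronic circRNA, lower. An unadjusted p under 0.05 by edgeR was found there for 17 intronic circRNAs (4.62%), against 4.34% of all tested. These shares stand near those of the whole table. The median log2 fold change of the 368 was -0.07 at day 3 and -0.18 at day 6 against day 0, where the medians of all circRNAs tested were 0.12 and 0.01. Scaling by DESeq2's size factors shifted the median of all by -0.13 at day 3. That scaling and library totals alone each gave 6 intronic circRNAs higher and 1 lower there, the lower one being the Gm21992 circle above, and the calls of Zeb1 and Asap1 at day 3 ended. DESeq2 itself called 11 higher and 7 lower at day 3 and 14 higher and 11 lower at day 6, against day 0. Its calls also grew over all 8153 circRNAs, to 170 higher and 102 lower at day 3 and 272 higher and 194 lower at day 6.

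**Figure D4:**
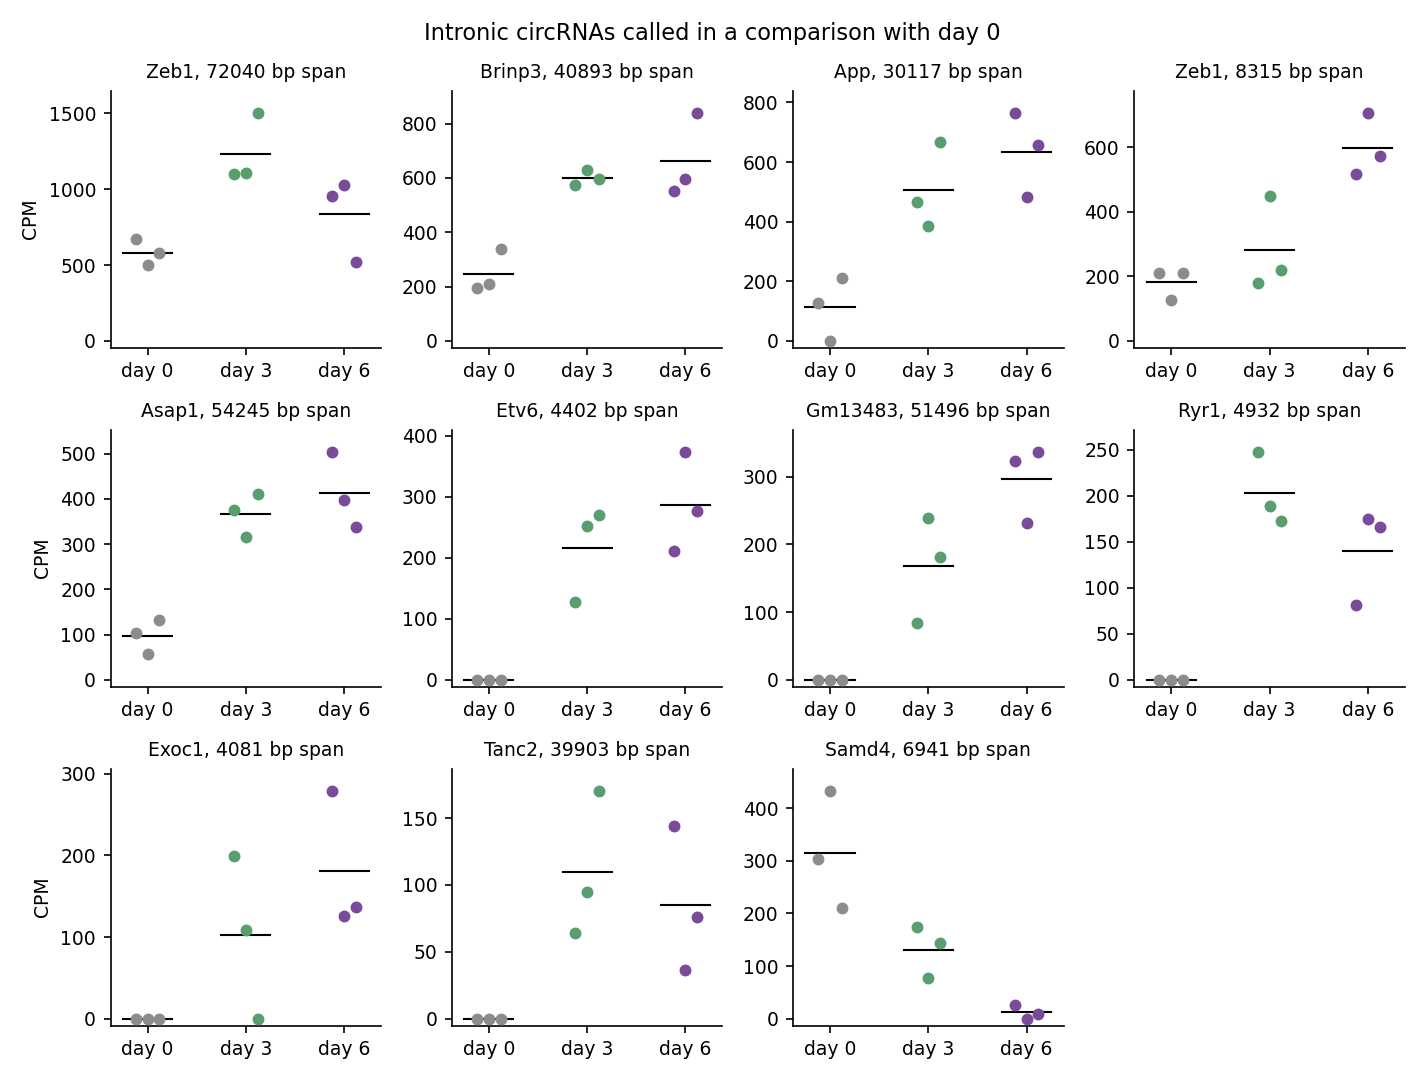
CPM per library at days 0, 3 and 6 for each intronic circRNA called against day 0; points are libraries and lines are means of 3. Etv6, Gm13483, Ryr1, Exoc1 and Tanc2 are at 0 in all day 0 libraries, and the Samd4 circle is near 0 at day 6.

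Several called circles were at 0 in every day 0 library, so their folds are lower bounds and are not ranked against other changes. The Etv6 circle (chr6:134062064-134066465; donor at exon 2 of 9, acceptor 4243 bp from the nearest exon edge) lies in the gene of an ETS-family repressor and is listed in circBase. Its donor edge belongs to 1 annotated transcript, which has no RefSeq match. The circle had 40, 72 and 92 reads at day 3 and 47, 92 and 117 at day 6, against 0 in each day 0 library. Against a floor of 3 reads per library it was at least 19.8-fold higher at day 3 (edgeR adjusted p = 1.50e-06) and at least 26.2-fold higher at day 6 (adjusted p = 3.42e-07), and the call held under every alternative run. The exonic circles of Etv6 averaged 143 ± 19.2 CPM at day 3, 175 ± 44.1 at day 6 and 110 ± 57.4 at day 0, and none was called. A pair of further circles used the same donor with acceptors at 134062068 and 134062032, with 67 and 52 reads. They were chosen for their place after the values were seen, and both were at 0 in every day 0 library.

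Gm13483 is a long intergenic non-coding gene with no exonic circle in the table. Its called circle (chr2:50355025-50406520) ran from exon 2 of 3 of Gm13483 to exon 3 of 4 of the neighbouring model Gm48908, which share no annotated transcript. It had 26, 68 and 62 reads at day 3 and 72, 57 and 142 at day 6, against 0 in each day 0 library, and was at least 15.3-fold higher at day 3 (adjusted p = 9.88e-06) and at least 27.1-fold higher at day 6 (adjusted p = 9.45e-07). The day 3 call was lost only when the fit held those 2 days alone (adjusted p = 0.0881). A second circle from the same acceptor, chr2:50355025-50370969, was listed in all 9 libraries with 302 reads and was not called. Reads from this acceptor were therefore present at day 0, and of this pair the longer circle alone was at 0. Another Gm13483 circle, chr2:50364065-50370969, from a different acceptor, had 22 reads in 3 libraries and was also at 0 at day 0.

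Ryr1 encodes the calcium-release channel of the sarcoplasmic reticulum of skeletal muscle. Its intronic circle (chr7:29035962-29040893; acceptor at exon 86 of 109, donor 18 bp from an exon edge) had 77, 54 and 59 reads at day 3 and 18, 43 and 70 at day 6, against 0 in each day 0 library. It was at least 18.5-fold higher at day 3 (adjusted p = 1.47e-04) and at least 12.8-fold higher at day 6 (adjusted p = 2.46e-04, lost in the fit of those 2 days alone, 0.104). The exonic circles of Ryr1 moved the same way, with 2181 ± 341 CPM at day 3 and 3360 ± 635 at day 6, against 238 ± 134 at day 0, and 1 of them was called higher on both days. The gene is known to be induced as myotubes form, and the table holds no linear reads against which to set its circles.

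The calls in Exoc1 and Tanc2 rested on fewer reads. Exoc1 encodes a subunit of the exocyst, which tethers secretory vesicles. Its circle (chr5:76542051-76546131) had 62, 31 and 0 reads at day 3 and 62, 31 and 58 at day 6, against 0 in each day 0 library. It was at least 16.5-fold higher at day 6 (adjusted p = 0.00260), while the day 3 call (at least 9.36-fold, adjusted p = 0.0102) had 1 library at 0 and was lost without day 3 replicate 1 (adjusted p = 0.0643). Tanc2 encodes a scaffold protein of the postsynaptic density. Its circle (chr11:105758922-105798824, exon 3 of a 4-exon transcript to exon 7 of a 26-exon one) had 20, 27 and 58 reads at day 3 and 32, 9 and 32 at day 6, against 0 in each day 0 library. It was at least 10.0-fold higher at day 3 (adjusted p = 0.0388) and at least 7.79-fold higher at day 6 (adjusted p = 0.0441). Those calls were lost without any 1 of 7 and of 8 of the 9 libraries, up to adjusted p = 0.257 and 0.167; the exceptions were day 6 replicates 2 and 3 for the day 3 call and day 6 replicate 2 for the day 6 call.

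Other members that rose were present from day 0. The App circle (chr16:85013627-85043743, exon 7 to exon 13 of 18), in the gene of the amyloid precursor protein, had 145, 110 and 228 reads at day 3 and 170, 119 and 278 at day 6, against 41, 0 and 53 at day 0. Its log2 fold change was 2.16 ± 0.57 at day 3 (adjusted p = 0.0294) and 2.49 ± 0.58 at day 6 (adjusted p = 0.00603), with no overlap between libraries. The day 3 call was lost without day 0 replicate 2, the library at 0 (1.58, adjusted p = 0.0741), and DESeq2 called neither day (adjusted p = 0.357 and 0.140). It was the only called circle with both ends on edges whose edges shared an annotated transcript. The exonic circles of App averaged 873 ± 156 CPM at day 3 and 1048 ± 88.8 at day 6, against 435 ± 162 at day 0.

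Asap1, a GTPase-activating protein for Arf proteins, and Brinp3, a gene named for induction by BMP and retinoic acid in neurons, gave called circles beside higher exonic ones. The Asap1 circle (chr15:64295669-64349913, acceptor at exon 2 of 31) had 117, 90 and 140 reads at day 3 and 112, 98 and 143 at day 6, against 33, 15 and 33 at day 0. Its log2 fold change was 1.91 ± 0.53 at day 3 (adjusted p = 0.0459) and 2.08 ± 0.54 at day 6 (adjusted p = 0.0192). The groups did not overlap, but leaving out any of the 9 libraries ended the day 3 call (adjusted p up to 0.336). Day 0 replicates 1 and 2, day 3 replicate 1 and day 6 replicates 1 and 2 did so for day 6 (up to 0.147). The Brinp3 circle (chr1:146660954-146701846, donor at exon 5 of 9) had 179, 179 and 203 reads at day 3 and 123, 147 and 354 at day 6, against 62, 54 and 85 at day 0. It missed the threshold at day 3 (adjusted p = 0.0882), but passed there by DESeq2 (0.00392) and in edgeR without day 0 replicate 3 (0.0367). Its log2 fold change was 1.43 ± 0.39 at day 6 (adjusted p = 0.0308), and 7 of the 9 libraries ended that call when left out, the exceptions being day 0 replicate 3 and day 6 replicate 1 (up to 0.362). Exonic circles of Asap1 averaged 1126 ± 274 CPM at day 3 and 1060 ± 134 at day 6, against 293 ± 104 at day 0, and those of Brinp3 2007 ± 357 and 2025 ± 642, against 718 ± 157.

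Zeb1 had 2 called circles that share the acceptor and end at different donors, both on exon edges. The one spanning 72040 bp had 343, 315 and 512 reads at day 3 and 212, 254 and 221 at day 6, against 215, 129 and 145 at day 0, and passed the test at day 3 alone (log2 fold change 1.08 ± 0.30, adjusted p = 0.0407). The one spanning 8315 bp had 56, 128 and 75 reads at day 3 and 115, 174 and 242 at day 6, against 67, 33 and 53 at day 0, and passed at day 6 alone (1.71 ± 0.48, adjusted p = 0.0428). Whether the 2 circles differ in their change was not tested. Neither call was stable: the first was lost without day 0 replicate 2 or 3, any day 3 library or day 6 replicate 2 (adjusted p up to 0.489), and the second without any of the 9 libraries (up to 0.325).

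Samd4 held the intronic circRNA that edgeR called lower. With DESeq2's size factors or library totals alone, edgeR also called the Gm21992 circle lower at day 3 and a second Samd4 circle, chr14:46908987-46917051, lower at day 6 (adjusted p = 0.0296 and 0.0300). Of its 38 intronic circles, 17 overlapped no exon and lay between 46908987 and 46949531 on chr14, built from 6 acceptors and 8 donors in varying pairs. Over all 38 circles, the acceptor at 46914486 was used by 5 with 1132 reads, that at 46910111 by 7 with 793 and that at 46908987 by 4 with 196. The donor at 46917051 was used by 8 with 1088 reads, that at 46935186 by 4 with 691 and that at 46925128 by 3 with 252. These ends lay 15467 to 28645 bp from the nearest annotated exon edge. The same few ends thus recurred in different pairs, and none of them is an annotated exon edge.

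The called Samd4 circle joined the donor at 46917051 to the acceptor at 46910111. It had 54, 22 and 49 reads at day 3 and 6, 0 and 4 at day 6, against 97, 112 and 53 at day 0. In CPM this was 131 ± 49.3 at day 3 and 12.1 ± 13.7 at day 6, against 315 ± 111 at day 0. The log2 fold change of day 6 over day 0 was -4.69 ± 0.96 (adjusted p = 9.68e-04), lost only in the fit of those 2 days alone (0.0589), and that of day 3 over day 0 missed the threshold (-1.26, adjusted p = 0.508). Its neighbour from the acceptor at 46914486 to the same donor had 30, 18 and 26 reads at day 3 and 4, 19 and 63 at day 6, against 130, 78 and 85 at day 0. No library of day 3 or day 6 reached those of day 0. It missed the threshold on both days by edgeR (adjusted p = 0.241 and 0.214) and passed on both by DESeq2 (adjusted p = 0.00451 and 0.00739).

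The 17 Samd4 circles without an exon summed to 510, 435 and 548 CPM at day 3 and 265, 97.4 and 402 at day 6, against 1696, 1643 and 1254 at day 0. The other 21 intronic circles of Samd4 averaged 172 ± 29.9 CPM at day 3 and 106 ± 52.3 at day 6, against 206 ± 170 at day 0. The most abundant exonic circle of Samd4, 519 bp long at chr14:47016277-47016795, rose, with 4275 ± 1234 CPM at day 3 and 4070 ± 944 at day 6, against 2214 ± 480 at day 0. Its log2 fold change was 0.95 ± 0.18 at day 3 (adjusted p = 3.66e-04) and 0.88 ± 0.18 at day 6 (adjusted p = 9.02e-04). Intronic circles thus made up 11.6, 15.6 and 11.9% of the circular reads of Samd4 at day 3 and 9.65, 3.86 and 10.0% at day 6, against 43.1, 36.9 and 43.8% at day 0.

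**Figure D5:**
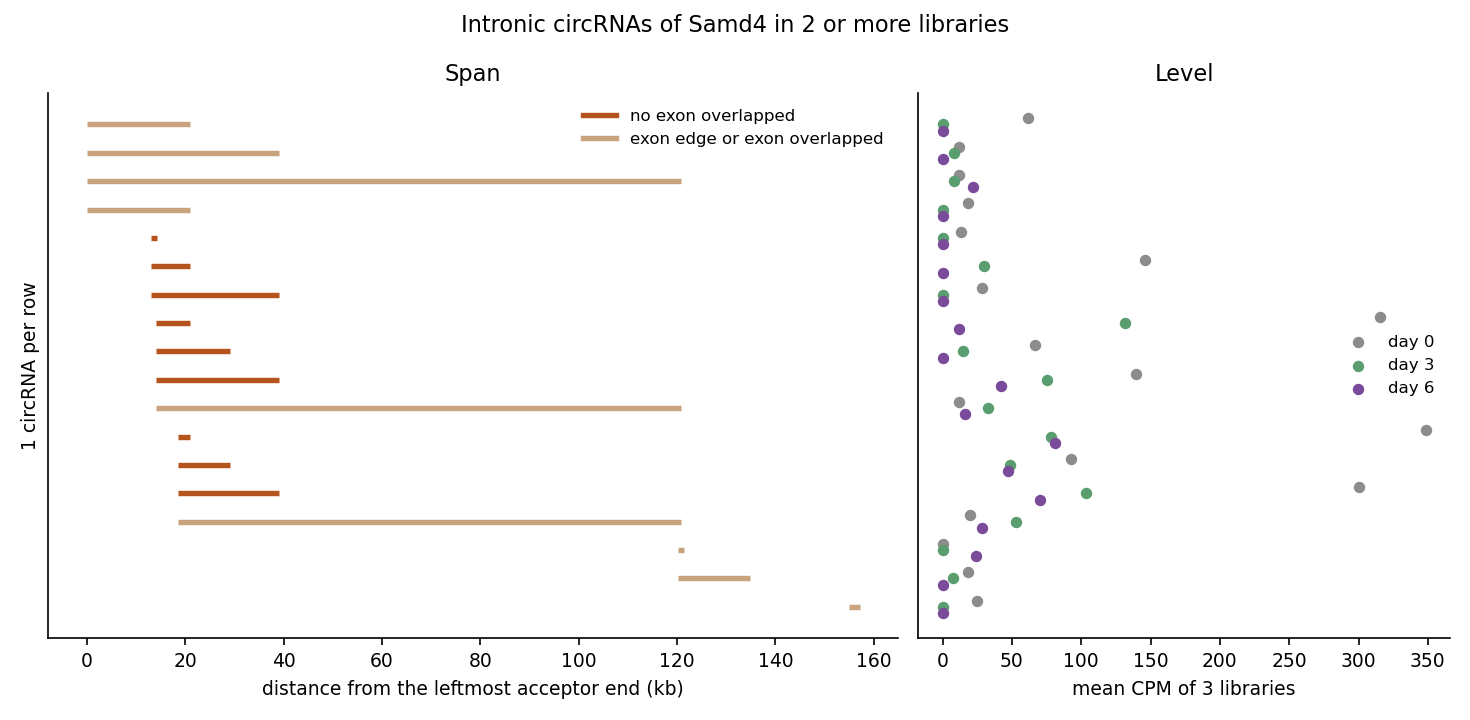
Intronic circRNAs of Samd4 listed in at least 2 libraries; left, span of each circle as distance from the leftmost acceptor (kb); right, mean CPM of 3 libraries at days 0, 3 and 6. Circles without an exon share a few ends, and the 9 shown each have their highest mean at day 0.

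A test of whether intronic and exonic circles of the same host changed unequally was fitted over 958 hosts with at least 10 reads of each type. It called 0 hosts in each of the 3 comparisons by edgeR, where the background was 0%. An unadjusted p under 0.05 was found for 19 hosts (1.98%) at day 3 and 21 hosts (2.19%) at day 6, over day 0. For day 6 over day 3 it was found for 10 hosts (1.04%). On simulated data this test recovered almost none of the differences put in. It therefore gives little information on any host and does not show that the types changed alike. The summed counts vary widely and are low in many hosts, but not in Samd4, with 2415 intronic and 10374 exonic reads. For Samd4 the interaction was -2.24 ± 1.27 at day 3 and -3.15 ± 1.30 at day 6 on the log2 scale (adjusted p = 1 each).

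Pvt1, a long non-coding neighbour of Myc, had lower values of both types after day 0. Its most abundant intronic circle (chr15:62170758-62175926) averaged 150 ± 37.9 CPM at day 3 and 98.1 ± 62.7 at day 6, against 357 ± 17.2 at day 0, with no overlap. Neither day passed edgeR's test (log2 fold changes -1.25 and -1.85, adjusted p = 0.422 and 0.183), while DESeq2 called day 6 lower (adjusted p = 0.00359). The exonic circles of Pvt1 averaged 1058 ± 337 CPM at day 3 and 682 ± 261 at day 6, against 2736 ± 629 at day 0. In Foxp1 with Gm20696, where Foxp1 encodes a forkhead factor, the circle chr6:99428789-99435345 averaged 108 ± 91.8 CPM at day 3 and 73.0 ± 56.9 at day 6, against 82.4 ± 6.94 at day 0. Libraries of different days overlapped for this circle, and it was not called.

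Intronic circRNAs were also counted in lists of muscle and cell cycle genes, with no background share set beside these counts. Of 37 genes of muscle contraction, 7 held 13 intronic circRNAs, and the 1 with enough reads to test was the Ryr1 circle, which rose on both days. Of 32 regulators of myogenesis, 15 held 44, of which 7 were tested and 0 called by edgeR in any comparison; DESeq2 called 1, the Nfix circle of 57633 bp, lower at day 6 against day 0 (adjusted p = 0.0413). Those 7 were circles of Nfix (3), Rbfox2 (2), Celf2 and Qk, the last 3 genes encoding RNA-binding regulators of splicing. The smaller ones were sparse: the Qk circle had 54 reads in 4 libraries and the Celf2 circle 70 reads in 4. The Rbfox2 circle of 64784 bp had 18, 7 and 19 reads at day 3, against 0 in each day 0 library, which was at least 4.20-fold higher but not called (adjusted p = 0.422). Of 40 cell cycle genes, 7 held 11 intronic circRNAs and none had enough reads to test. As a check of the cells, circRNA reads of hosts that mark skeletal muscle came to 8976 to 10585 CPM of the unadjusted totals at day 3 and 10478 to 14776 at day 6, against 208 to 429 at day 0, with reads for 7 of 8 markers and Mymk at 0. Markers of fat, bone and reserve cells had reads for 1 of 6, 1 of 6 and 2 of 4 genes. On the same scale, fat markers came to 94.8 to 465 at day 0, 107 to 266 at day 3 and 94.5 to 211 at day 6. Bone or cartilage markers came to 250 to 337, 265 to 575 and 271 to 421 on those days. Reserve-cell markers came to 31.5 to 159, 67.9 to 312 and 158 to 267.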

How the data were processed

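The authors deposited 1 table of raw back-splice read counts per circRNA and library, with locus, type, host and circBase entry. The submitters' processing notes name BWA and the mouse build GRCm38.p4 (mm10). Caller, filters and strand handling: not given in the sources used here. Count columns were mapped to samples by name. Coordinates are as deposited, counted from 1, and symbols, exon edges and sequences are from GENCODE M21 of GRCm38, with no intron sequence used.

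The test was edgeR 4.0.16's quasi-likelihood F-test (R 4.3.3) over all circRNA types, with TMM factors, filterByExpr (minimum count 5, minimum total 15), a prior count of 0.125, all 9 libraries, no block, 6 residual degrees of freedom and Benjamini-Hochberg adjustment over all circRNAs tested at 0.05. The SE of a log2 fold change is its absolute value divided by the square root of F. Where a group was at 0 in all libraries, the fold is a lower bound against 3 reads per library, and with PCR reads and no molecular identifiers such floors and intervals cover counting error only. The host test used a library term, a type term and type by day terms on counts summed per host. Shares were compared by exact permutation tests (scipy 1.17.1). Scripts were tested on simulated data. DESeq2 1.42.0, other scalings, filters, fits of 2 days and leave-one-out fits were alternatives.

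Chi-square over degrees of freedom between libraries of a day was 9.37 to 12.3, far above the sampling noise of a repeat deposit. Members and lists were chosen with earlier results of these data known. Named were the called circRNAs, the 10 with the most reads, circles of the 5 hosts with the most intronic circRNAs, the 3 shortest and 3 longest tested, and tested members of the gene lists; a few of these are not reported here. Classes of ends, intron positions, reused ends, the RefSeq check and further hosts were chosen after the data were seen.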

Additional observations from a re-analysis of the deposited data

How the results depend on the processing

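Both differences in the share of reads between day 3 or day 6 and day 0 kept their sign under every alternative run, and leaving out 1 library gave -0.880 to -0.797 and -0.937 to -0.757 points. For day 6 against day 3 the share turned sign, with -0.0981 to 0.0820 points and -0.0172 without day 3 replicate 2. The number listed, day 3 against day 0, became 27.3 higher with only circRNAs of 2 or more libraries, and ranged from -115.3 to 22.2 when 1 library was left out. For circles with both ends on edges, the difference from day 0 at day 6 was 0.0785 points without Zeb1. Leaving out the called ones, a removal set by the outcome, gave -0.0127 points there and -0.0186 against day 3. Leaving out 1 library gave -0.0165 (day 3 replicate 1) to 0.0232 at day 6 against day 3. The causes of these changes were not tested.

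The 8 calls at day 3 against day 0 became 18 with DESeq2 (11 higher, 7 lower), 5 with a minimum count of 10, 2 in the fit of 2 groups, and 4 to 8 when 1 library was left out, 5 without day 0 replicate 2 and 4 without day 3 replicate 1. The 10 calls at day 6 became 25 with DESeq2 (14 higher, 11 lower), 3 in the fit of 2 groups and 7 to 12 when 1 library was left out. DESeq2 called 1 intronic circRNA at day 6 against day 3, a Samd4 circle. Over all 8153 circRNAs tested, DESeq2 called 170 higher and 102 lower at day 3 and 272 higher and 194 lower at day 6, against day 0. For day 6 against day 3 it called 3 higher and 17 lower over all. The host test called 0 to 1 hosts at day 6 against day 0 when 1 library was left out, the 1 being Gigyf2 (named after its value was seen) without day 0 replicate 1. Same-numbered libraries of different days had correlations of -0.03 to 0.01 in their deviations. No pairing by number was seen, but counts as noisy as these could hide one. With the replicate number as a block the calls were 8, 11 and 0, and the exact sign-flip test of the share gave p = 0.25, 0.25 and 1, where 0.25 is the smallest possible. Depth limits these results: 368 of 3761 members could be tested, and a single read in a library is listed at 0.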
